A study of Mus musculus with 130 samples.

Results

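The deepest losses of RNA described here, seen when 2-cell mouse embryos were cultured with SR1848, are those of Timd2, Arfrp1, Npl, Iqub, Ccdc25, Rnf11 and Them4. These 7 genes were chosen on the comparison of SR1848 with control embryos, for the size of their falls, out of 13222 genes tested and 30065 genes with at least 1 count. They hold places 1, 4, 5, 7, 8, 9 and 10 in the order of falls among named genes with a mean of at least 20 CPM (counts scaled to the same library total, with edgeR's TMM factors) over all embryos that passed the test, and the genes at the places between are not described here. Their fall is therefore the reason for their choice and is given as a description, with no test. What the choice did not use is their transcripts' annotation, their neighbours, the other genes of their pathways and the way they vary from embryo to embryo inside each group.

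RNA of 130 single embryos of the strain B6129F1 was measured from oligo-dT-primed Smart-seq2 libraries. Zygotes were collected 5 hours after fertilization and put into KSOM medium in wet chambers with no oil layer. From 6 hours after fertilization the medium held either 10 uM SR1848 (80 embryos) or 0.1% DMSO (50 embryos, whose titles carry the mark NT). All were sampled at the 2-cell stage, and the labels give no hour of sampling. SR1848 is used as an inhibitor of Nr5a2, an orphan nuclear receptor also called LRH-1. The labels do not say which embryos shared a female, a culture chamber or a plate, so each test measures the spread between these embryos. The effect of SR1848 and that of any handling common to its group cannot be told apart.

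At the 2-cell stage the mouse embryo switches on its own genome while RNA stored in the egg is broken down. The 7 proteins belong to unrelated pathways. Timd2 is a cell-surface receptor that takes up H-ferritin, and Npl is the lyase that cleaves sialic acid. Arfrp1 is a small GTPase of the trans-Golgi, where it brings Arl1 and golgin tethers to the membrane. Rnf11 is a RING-finger adaptor that works with Nedd4-type ubiquitin ligases, Tax1bp1 and Itch. Them4 is an acyl-CoA thioesterase that also binds Akt, Ccdc25 is a membrane protein described as a sensor of extracellular DNA that signals through integrin-linked kinase, and Iqub is a protein of the radial spokes of cilia and flagella.

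Each embryo had between 2705843 and 8380057 counts assigned to genes, with a median of 5437790 in the DMSO group and 4618360 in the SR1848 group. The 100 most abundant genes held 24.8% ± 2.95 (SD, n = 50) of the counts with DMSO and 34.9% ± 4.98 (SD, n = 80) with SR1848. The summed CPM of 9 markers of the 2-cell stage ran from 86.4 to 586 with DMSO and from 237 to 4182 with SR1848, all 9 with counts. That of 8 oocyte markers, all with counts, ran from 2957 to 16367 and from 7842 to 59976. Cumulus and granulosa markers (10 of 10 with counts) had medians of 47.1 and 19.8 CPM, blood markers (5 of 6, Hbb-bt at 0) 33.6 and 213 CPM, and sperm markers (6 of 7, Smcp at 0) 0.63 and 1.66 CPM. The part of these shifts in the falls of the 7 genes was not tested. As one library holds a whole embryo, fewer cells with a transcript and less of it per cell cannot be told apart.

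The sequences just before the annotated starts of the genes are shown first because they are where a loss shared by all transcripts of a gene could be read against the letters of its promoter. RefSeq entries (GRCm38.p6) were found for 5 of the 7 genes, 6 entries in all. Rnf11 and Ccdc25 are named only. The Arfrp1 window (chr2:181365405-181365654) is not printed because transcribed bases of its neighbour Zgpat on the other strand cover it, nor is that of Npl, which lies inside the annotated gene. Only bases lying before an annotated GENCODE start of the gene are printed for the others, 5′ to 3′ on the gene's strand. The inner Timd2 window is printed although it also lies inside the annotated gene, downstream of the outer start. Capitals mark GGGCGG or its reverse complement.
Timd2, outer start, chr11:46707105-46707354, minus strand: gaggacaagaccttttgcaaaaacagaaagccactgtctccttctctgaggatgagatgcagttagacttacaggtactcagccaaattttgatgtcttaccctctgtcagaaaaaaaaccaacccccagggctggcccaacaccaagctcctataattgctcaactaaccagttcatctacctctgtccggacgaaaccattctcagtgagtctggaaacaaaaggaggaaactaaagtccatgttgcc
Timd2, inner start, chr11:46698963-46699080, minus strand: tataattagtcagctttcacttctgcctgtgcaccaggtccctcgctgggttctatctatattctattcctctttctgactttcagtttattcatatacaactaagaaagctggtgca
Them4, chr3:94309882-94310088, plus strand: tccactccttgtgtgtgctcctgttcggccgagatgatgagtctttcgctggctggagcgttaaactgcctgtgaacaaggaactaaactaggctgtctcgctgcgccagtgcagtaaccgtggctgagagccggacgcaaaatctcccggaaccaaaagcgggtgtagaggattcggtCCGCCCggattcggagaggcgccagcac
Iqub, chr6:24515068-24515317, minus strand: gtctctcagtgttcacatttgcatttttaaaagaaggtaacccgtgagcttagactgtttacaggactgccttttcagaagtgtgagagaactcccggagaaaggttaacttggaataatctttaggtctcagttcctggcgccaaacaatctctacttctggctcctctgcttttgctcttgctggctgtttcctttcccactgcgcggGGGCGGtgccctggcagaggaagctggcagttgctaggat

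The 6 windows of 250 bases before the RefSeq starts had no common composition. GC content was 67.6% for Arfrp1, 62.4% for Them4, 59.6% for Npl and 49.2% for Iqub, and 45.6% and 42.4% for the outer and inner Timd2 starts, beside a median of 52.4% over 32817 promoters. CpG dinucleotides numbered 24 for Arfrp1 and 23 for Them4, against 2 before each Timd2 start. Searched on both strands, AAGGTCA, the core of the NR5A-type site, was found in none of the 6 windows, and in 4.08% of all promoters. The longer TCAAGGTCA, which contains it, was also in none, against 0.387% of all promoters. TATAAA (12.4% of all promoters), CCAAT (33.8%) and GGATTA (6.25%) were in none of the 6 either. GGGCGG, held by 32.7% of all promoters, occurred 4 times for Them4, 3 times for Arfrp1 and once for Iqub. These windows are short, so a missing match says only that the letters are not there.

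Against the DMSO group, 10921 of the 13222 genes tested passed edgeR's quasi-likelihood test at a Benjamini-Hochberg adjusted p under 0.05, which is 82.6% of them. Of the genes tested, 35.4% were lower and 47.2% higher with SR1848. In 1.57% of them (207 genes) every SR1848 embryo lay below every DMSO embryo. All 7 chosen genes are among these 207, and since they were chosen on this contrast nothing is read from it. All genes together had a median log2 fold change of 0.30. When libraries were scaled to the 8 oocyte markers instead, that median was -1.34 and 663 genes were higher and 9987 lower, so that 6.23% of the passing genes were higher in place of 57.1%.

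Timd2 (chr11:46668960-46707061, minus strand, mm10) had the deepest fall. Its level in the DMSO embryos was lowest at 89.2, with a median of 405 and a highest value of 838 CPM, and in the SR1848 embryos it ran from 0 through a median of 4.97 to 24.6 CPM. The groups left a gap: the lowest DMSO embryo stood at 3.63 times the highest SR1848 embryo. The means were 436 ± 183 (SD, n = 50) and 6.46 ± 5.26 CPM (SD, n = 80), a log2 fold change of -6.07 (SE 0.205), or 67.4-fold lower. What was left was 1.48% of the control mean. Even so, 78 of the 80 SR1848 embryos still had a count of it, with a median of 20 counts.

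Npl (chr1:153503015-153550045, minus strand) ran from 114 through 297 to 669 CPM with DMSO. With SR1848 it ran from 0 through 5.12 to 33.99 CPM, and 5 of 80 embryos had no count. The groups did not overlap. The log2 fold change was -5.45 (SE 0.224), from 312 ± 109 to 7.10 ± 6.80 CPM (SD, n = 50 and 80), which leaves 2.28% of the control mean.

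Arfrp1 (chr2:181357690-181365404, minus strand) was the gene with the smallest number of control counts, a median of 384 an embryo. DMSO embryos ran from 32.2 through 58.9 to 134 CPM and SR1848 embryos from 0 through 0.93 to 10.8 CPM. No embryos overlapped, and 28 of the 80 SR1848 embryos had none of it. A count of 0 allows up to 3 counts, which is 0.69 CPM in the median SR1848 embryo and at most 1.27 CPM, counting error only, so in the shallower embryos a 0 cannot be told from a level near the group's median. The means were 66.2 ± 22.2 and 1.47 ± 2.01 CPM (SD), the log2 fold change -5.47 (SE 0.278), and the residue 2.22%.

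Rnf11 (chr4:109451098-109484728, minus strand) ran from 139 through 274 to 564 CPM with DMSO. With SR1848 it ran from 0 through 5.71 to 88.7 CPM. The highest SR1848 embryo was far above the median of its group and the next one was at 57.3 CPM, yet both lay below the lowest control. The means were 296 ± 91.1 and 9.46 ± 13.1 CPM (SD), the log2 fold change -4.96 (SE 0.239), and the residue 3.20% by the means and 2.08% by the medians.

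Them4 (chr3:94310089-94332540, plus strand) ran from 36.6 through 87.5 to 271 CPM with DMSO and from 0 through 1.57 to 15.2 CPM with SR1848. The groups did not overlap, and 11 SR1848 embryos had no count. The means were 92.9 ± 40.5 and 2.97 ± 3.47 CPM (SD), with a log2 fold change of -4.94 (SE 0.252). Them4 is the last gene inside the choice. Just outside it was Ifi35 at -4.82 (SE 0.245), so the border is set by the count of genes taken and not by a step in the falls.

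Ccdc25 (chr14:65837302-65866607, plus strand) ran from 60.1 through 201 to 335 CPM with DMSO and from 0 through 4.83 to 19.8 CPM with SR1848, with no overlap. The means were 193 ± 61.6 and 5.86 ± 4.65 CPM (SD), with a log2 fold change of -5.04 (SE 0.207) and a residue of 3.03%.

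Iqub (chr6:24444865-24515067, minus strand) was the gene most often at 0. DMSO embryos ran from 23.4 through 67.6 to 168 CPM, and SR1848 embryos from 0 through 0.36 to 15.5 CPM, with 36 of 80 at 0. The groups did not overlap, although the lowest control was only 1.51 times the highest SR1848 embryo. The means were 72.7 ± 29.2 and 2.09 ± 3.53 CPM (SD), with a log2 fold change of -5.11 (SE 0.330). The residue was 2.88% by the means and 0.53% by the medians. The SR1848 median is below the level of 3 counts in a median SR1848 embryo (0.69 CPM), so the latter value is not resolved.

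**Figure D1:**
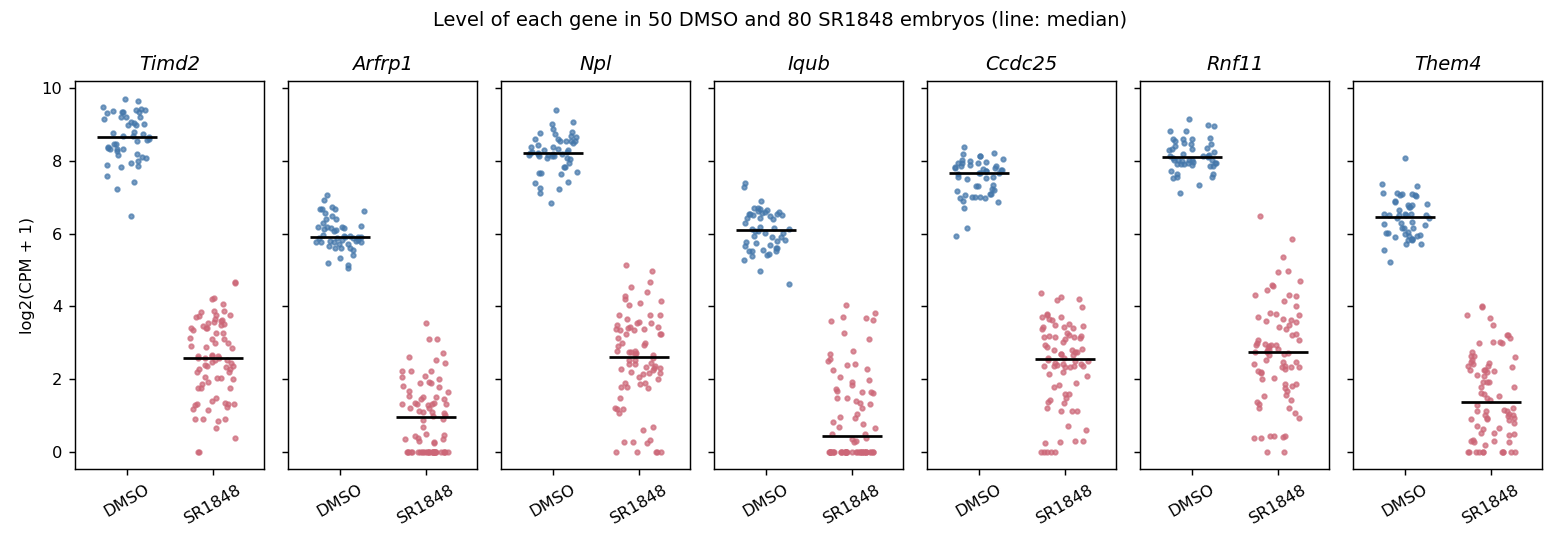
Level of each gene on the log2(CPM + 1) scale (vertical axis) in every DMSO embryo (blue, n = 50) and every SR1848 embryo (red, n = 80), with a black line at the group's median. In each of the 7 genes all 80 SR1848 embryos sit below all 50 controls, and Iqub has the most embryos on the zero line (36).

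Control embryos varied less among themselves than treated ones. The coefficient of variation over embryos was between 30.8% (Rnf11) and 43.5% (Them4) with DMSO and between 79.3% (Ccdc25) and 169% (Iqub) with SR1848, where few counts are left. Nr5a2 itself, which was not among the chosen genes, had 96.3 ± 26.9 CPM with DMSO and 10.6 ± 7.76 CPM with SR1848 (SD), a log2 fold change of -3.18 (SE 0.177) and a residue of 11.04%. Per kilobase of transcript, control levels were highest for Timd2 (289 ± 126 CPM per kb, SD), Rnf11 (225 ± 68.3) and Npl (180 ± 62.9), whose ranges of 1 SD overlap. Ccdc25 followed at 87.2 ± 27.7, then Them4 at 52.04 ± 22.6 and Arfrp1 at 50.6 ± 16.9. The ranges of 1 SD of Ccdc25, Them4 and Arfrp1 overlap as well. An SD gives the spread between embryos and not the error of a mean, and the order of the genes was not tested. Iqub was lowest at 19.9 ± 7.999 CPM per kb.

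The remaining RNA was spread unevenly over the SR1848 group. The 8 embryos with the highest level of a gene held between 26.6% (Ccdc25) and 54.5% (Iqub) of its summed CPM over the 80 embryos. All 7 genes had a count in 23 of the 80 embryos, 6 genes in 36, 5 in 13, 4 in 5 and 3 in 3 embryos. One embryo, SR1848 replicate 22, was the highest for Timd2, Rnf11 and Them4 together. It had 6291097 counts, the ninth largest total of its group, 17904 detected genes and 22.7 CPM of Nr5a2. The highest embryos for Arfrp1, Npl, Iqub and Ccdc25 were 4 different ones. On the control side, DMSO replicate 31 was the lowest for Timd2, Ccdc25 and Rnf11, and DMSO replicate 2 for Iqub and Them4.

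The 7 genes have 28 annotated transcripts in the deposited table, of which 14 are protein coding and 11 are annotated as retained introns. All 28 had counts. Of the 17 with a mean of at least 1 CPM in the controls, 16 were below 10% of their control mean with SR1848. That count follows from the choice of the genes on this contrast and of the 17 by their control level. Nothing is read from it, nor from the fall of each gene's main coding transcript. The minor forms kept different shares of their control level, and a retained intron of Npl and one of Them4 did not share the fall. The counts are kallisto's estimates, which divide reads that fit several transcripts, and this division is uncertain when only a few counts are left.

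Timd2 lost its transcripts unequally. The main coding transcript ENSMUST00000055102, which starts at 46707059, went from 343 ± 158 to 2.97 ± 3.94 CPM (SD), so that 0.87% remained. ENSMUST00000109225, whose start at 46698962 lies inside the gene after the inner promoter window printed above, went from 47.3 ± 21.5 to 2.82 ± 4.07 CPM and kept 5.96%. Its share of Timd2 was 10.8% in the controls and 43.5% with SR1848. It exceeded the main transcript in none of 50 controls and in 33 of the 74 SR1848 embryos that had a count of either. The short ENSMUST00000125008, which shares the outer start, kept 0.79%, close to the main transcript, and ENSMUST00000169584, which starts further inside, went from 2.31 to 0.34 CPM (14.8% left). In the authors' deposited table the log2 fold changes are -7.27 for the main transcript and -4.48 for ENSMUST00000109225.

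Npl held the single transcript with a higher mean in the treated embryos. The coding ENSMUST00000041874 went from 311 ± 109 to 5.49 ± 5.89 CPM (SD), 1.76% of the control. ENSMUST00000187747, a single-exon transcript annotated as a retained intron near the start of the gene (it begins at 153549711, the coding one at 153550045), went from 0.70 ± 1.12 to 1.62 ± 3.15 CPM. It had counts in 35 of 50 controls and in 65 of 80 SR1848 embryos, of which the highest had 24.5 CPM. Its medians, 0.33 CPM with DMSO and 0.61 CPM with SR1848, are below the level of 3 counts in a median embryo (0.51 and 0.69 CPM). Its share of the gene was 0.22% in the controls and 22.8% with SR1848, and it exceeded the coding transcript in 14 of 75 treated embryos and in 0 of 50 controls. The authors' deposited table gives it a log2 fold change of 0.81 with a standard error of 0.394. The adjusted p of their DESeq2 test for it is 0.080, so a rise of this transcript is not established.

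Them4 had a like exception at a lower level. Its coding transcript went from 89.8 ± 39.1 to 2.45 ± 3.61 CPM (SD), and the retained intron ENSMUST00000196824 stood at 0.39 ± 0.54 CPM with DMSO and 0.36 ± 0.75 CPM with SR1848. Both of the latter are below the level of 3 counts in a median embryo. Rnf11 kept its proportions more closely: ENSMUST00000064167 held 66.97% of the gene in the controls and 57.9% with SR1848, and ENSMUST00000145980, which starts further upstream, 26.8% and 28.9%. The third Rnf11 transcript, ENSMUST00000030284, kept the most at 6.81% of its control mean. Among 12 transcripts of Arfrp1 the coding ENSMUST00000108808 (28.6 to 0.56 CPM) and ENSMUST00000185118, annotated as a target of nonsense-mediated decay (21.4 to 0.19 CPM), made up most of the control level. Ccdc25 was 99.7% its coding transcript in the controls and 96.7% with SR1848, and Iqub has a single transcript in the table.

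**Figure D2:**
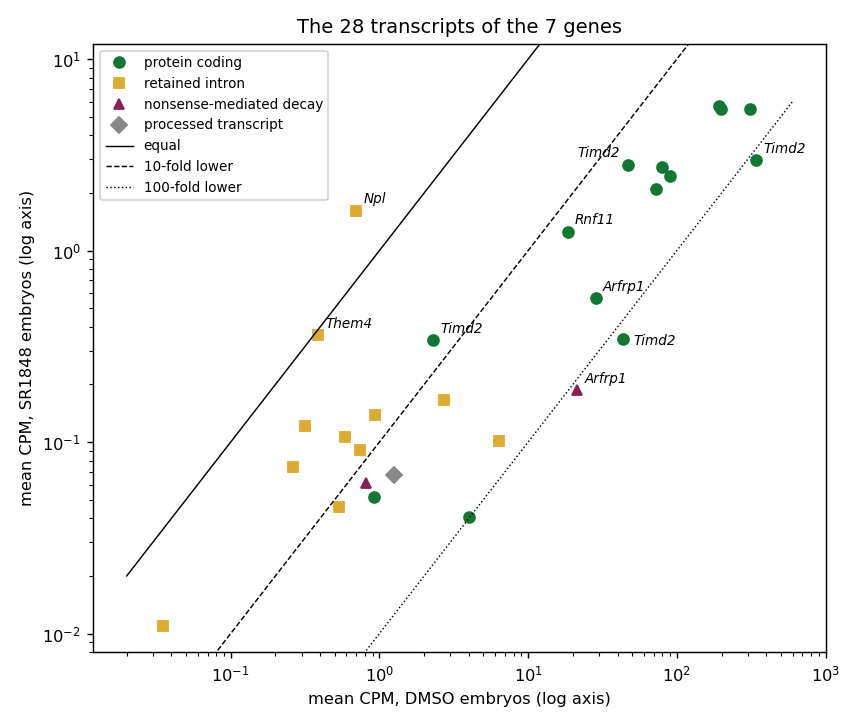
Mean CPM of each of the 28 transcripts in SR1848 embryos (vertical, log axis) against DMSO embryos (horizontal, log axis), by annotated type, with lines for equal, 10-fold lower and 100-fold lower levels. The single transcript above the line of equality is the retained intron of Npl (0.70 against 1.62 CPM), while the main Timd2 transcript lies below the 100-fold line.

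Across the genes with such annotation, transcripts of the retained-intron type took a larger share of the residue. The share of a gene's CPM on them went from 13.9% to 33.7% for Arfrp1, from 0.22% to 22.8% for Npl, from 0.30% to 3.32% for Ccdc25 and from 3.33% to 17.7% for Them4. The other genes tested give the background. Over 7015 genes with a retained-intron transcript the median share was 3.65% with DMSO and 4.69% with SR1848, and it was higher with SR1848 in 58.3% of them. Over the 250 of these that passed the test and were at least 8-fold lower, the 4 chosen genes included, the medians were 2.38% and 8.60%, and the share was higher with SR1848 in 80.8%. A rise in this share is thus common among genes with deep falls and is not shown to be particular to these 4.

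**Figure D3:**
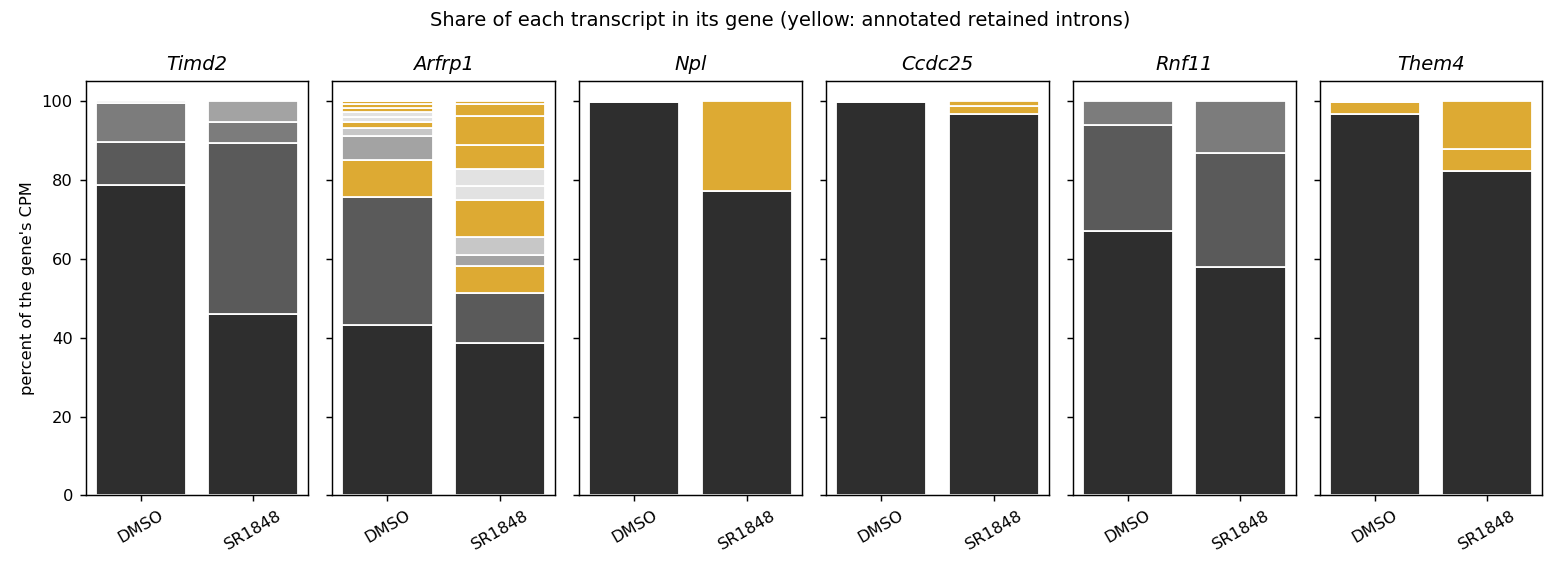
Percent of each gene's CPM (vertical axis, from 0) on each of its transcripts, summed over DMSO and SR1848 embryos, with greys for separate transcripts and yellow for those annotated as retained introns. Iqub, with a single transcript, is left out. The second Timd2 segment from below grows from 10.8% to 43.5% and the yellow Npl segment from 0.22% to 22.8%.

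None of the nearest tested genes on both sides fell as deeply as the 7, which were picked for depth. Of 14 neighbours 5 were lower, 5 higher and 4 did not pass edgeR's quasi-likelihood test with Benjamini-Hochberg adjustment over all genes. The 5 lower ones are 35.7% of the neighbours, next to 35.4% of all genes tested. None was at least 8-fold lower, and the deepest was 7.84-fold lower. As only 523 of the 13222 genes tested were at least 8-fold lower, 14 neighbours are too few to differ from that share. The largest fall was that of Zgpat, a zinc-finger gene at chr2:181364928-181383628 that overlaps the start of Arfrp1 on the other strand, with a log2 fold change of -2.97 (SE 0.333, adjusted p = 1.1e-14). The counting is not stated to use strand, so reads from the stretch both genes cover cannot be told apart. On its other side, 1074 bases away, the helicase gene Rtel1 stood at 42.1 CPM with DMSO and 47.1 CPM with SR1848 and did not pass.

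Beside Ccdc25, the cohesin acetyltransferase gene Esco2 fell by 1.19 on the log2 scale (SE 0.098) and Clu, which encodes clusterin, rose by 1.19 (SE 0.322). The neighbours of Iqub, Ndufa5 (-0.98, SE 0.249) and Slc13a1 (1.09, SE 0.133), also moved in opposite directions. So did those of Npl, the helicase gene Dhx9 (-0.54, SE 0.158) and Rgs16 (1.26, SE 0.292). Next to Rnf11 both genes rose, Ttc39a by 1.86 (SE 0.286) and 4930522H14Rik by 0.83 (SE 0.189). Timd2 lies near its relative Havcr1, another gene of the TIM family 28019 bases away, at 8.08 CPM with DMSO and 11.2 CPM with SR1848 (log2 fold change 0.47, SE 0.229, adjusted p = 0.051 by edgeR's quasi-likelihood test). Dppa1 on the other side of Timd2 (0.40, SE 0.289) and Spopfm1 beside Them4 (-0.31, SE 0.217) did not pass either, and Tdrkh beside Them4 fell by 0.81 (SE 0.146). With scaling to oocyte markers 11 of the 14 neighbours were lower.

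**Figure D4:**
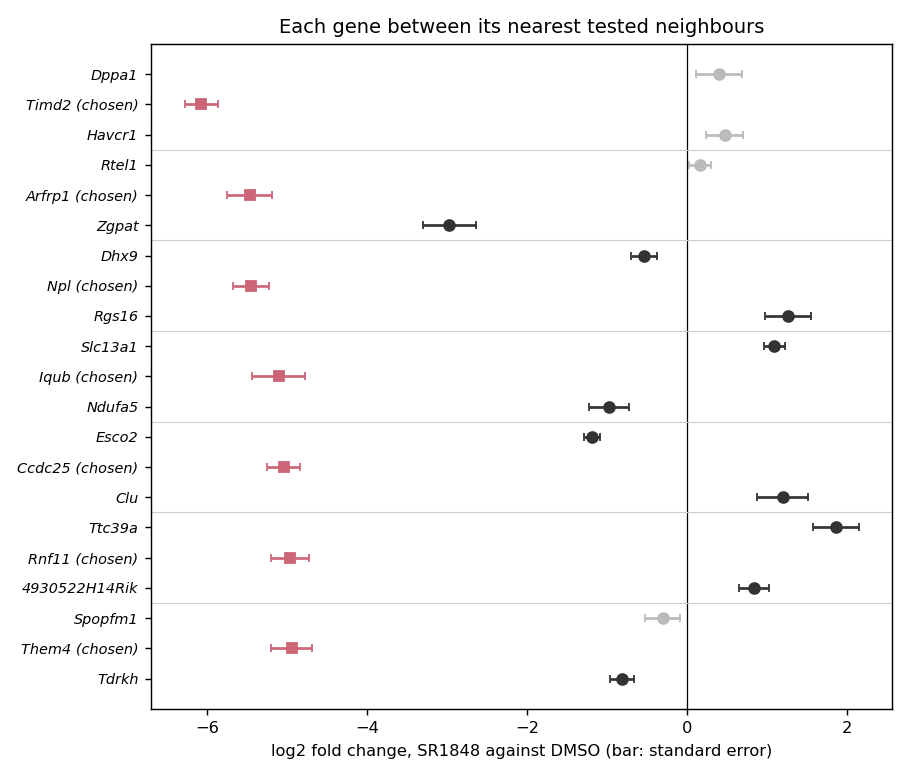
Log2 fold change of SR1848 against DMSO (horizontal axis, bars are standard errors) for each chosen gene (red squares) between its nearest tested neighbours (circles, dark where the adjusted p is under 0.05 and light otherwise). The chosen genes lie between -6.07 and -4.94 and the neighbours between -2.97 and 1.86.

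The known partners of the 7 proteins moved in both directions. In 7 lists, one for the pathway of each gene with the gene itself left out, 108 of 129 listed genes were tested, of which 55 were higher, 33 lower and 20 did not pass edgeR's test. That is 50.9% higher and 30.6% lower, beside 47.2% and 35.4% of all genes, and the direction depends on scaling, since with oocyte markers as the scale 3 were higher and 87 lower. The median log2 fold change over the 108 genes was 0.33, beside 0.30 for all genes. At least 8-fold lower were 4 of the 108 (523 of the 13222 genes tested), which were looked up after their values were seen: the thioesterase gene Acot13 (-4.26), Renbp (-3.95) and Ctsa (-3.07) of sialic acid metabolism, and the golgin gene Golga1 (-3.69).

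Among 16 genes of iron uptake and the TIM family tested for Timd2, 8 rose and 6 fell, with a median log2 fold change of 0.38. Fth1, which encodes the H-ferritin that Timd2 binds, rose from 565 ± 250 to 2000 ± 888 CPM (SD, log2 fold change 1.82, SE 0.116). Tfrc, the transferrin receptor, fell from 285 ± 101 to 39.8 ± 28.7 CPM (log2 fold change -2.84, SE 0.140). Of 16 genes of sialic acid metabolism tested for Npl, 8 rose and 5 fell, with a median of 0.56. Ctsa, a lysosomal carboxypeptidase that protects neuraminidase, fell from 272 ± 82.1 to 32.5 ± 18.9 CPM, and the sialyltransferase St6gal1 rose by 1.31 (SE 0.134).

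Of 25 trans-Golgi genes tested for Arfrp1, 10 rose and 9 fell, with a median of 0.24. Tgoln1, an integral protein of the trans-Golgi network, fell from 255 ± 59.5 to 33.4 ± 18.7 CPM (SD, log2 fold change -2.93, SE 0.136). The small GTPase Arf5 rose by 1.61 (SE 0.142) and the Arf exchange factor Arfgef1 by 0.71 (SE 0.074). For Rnf11, 11 of 16 partners and Nedd4-type ligases rose and 2 fell (median 0.59). Its partner Tax1bp1 fell from 239 ± 47.5 to 121 ± 46.4 CPM (log2 fold change -0.99, SE 0.084), and the ligase Nedd4l rose by 1.45 (SE 0.117).

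For Them4, 8 of 14 thioesterase and Akt pathway genes rose and 5 fell (median 0.23). Acot13 fell from 41.99 ± 16.8 to 2.17 ± 2.25 CPM (SD), Akt1 rose by 1.19 (SE 0.122) and the Akt kinase Pdpk1 rose by 0.62 (SE 0.095). For Ccdc25, 5 of 11 genes of the integrin-linked kinase and parvin group rose and 2 fell (median 0.48), among them Cdc42 at -1.23 (SE 0.100), the exchange factor Arhgef7 at 0.94 (SE 0.080) and Rac1 at 1.47 (SE 0.184). For Iqub, 5 of 10 radial spoke and axoneme genes rose and 4 fell (median -0.21), among them Calm2, a calmodulin gene, at -1.28 (SE 0.113) and Rsph3b at 1.35 (SE 0.132).

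Covariation inside a group was not used to choose the genes. In the DMSO group several of the 7 rose and fell together over the 50 embryos. Pearson's r of log2 CPM was positive for 20 of the 21 pairs, with a median of 0.31. A gene of the 7 and any tested gene had a median r between -0.04 and 0.02. In a two-sided permutation test 6 pairs passed after Benjamini-Hochberg adjustment over 42 relations (21 pairs in each group), 12 at an unadjusted p under 0.05, and 5 by Spearman's rho. The strongest pair was Ccdc25 with Rnf11 (r = 0.60, permutation p = 2e-05, adjusted p = 0.00084, rho = 0.60, permutation p = 1e-05, the smallest that 100000 resamples give). Without the 2 embryos farthest from the median of Ccdc25 r was 0.54.

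Timd2 went with Ccdc25 (r = 0.55, permutation p = 9e-05, adjusted p = 0.0019, rho = 0.42, permutation p = 0.0027) and kept r = 0.51 without the 2 farthest embryos. Of all genes tested, 0.378% had at least this r with Timd2 and 1.17% with Ccdc25. Over the 6 pairs that passed with DMSO this share ran from 0.378% to 8.87%. The latter is the share of genes as close to Npl as Them4 was. Timd2 also went with Iqub (r = 0.47, permutation p = 0.00068, adjusted p = 0.0056, rho = 0.51, permutation p = 0.00013, r = 0.53 without the 2 farthest), and Iqub with Ccdc25 (r = 0.46, permutation p = 0.0008, adjusted p = 0.0056, rho = 0.41, permutation p = 0.0035, r = 0.42 without the 2 farthest). These 3 genes thus formed a triangle of pairs that each passed.

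A pair joining Arfrp1 and Npl (r = 0.48, permutation p = 0.00053, adjusted p = 0.0056) and one joining Npl and Them4 (r = 0.37, permutation p = 0.0077, adjusted p = 0.029) passed by r but not by rho (0.30 and 0.32, adjusted permutation p = 0.078 and 0.072). Without the 2 farthest embryos their r was 0.40 and 0.50. Arfrp1 and Npl also each fell with the share of counts on the 100 most abundant genes across DMSO embryos (r = -0.66, permutation p = 1e-05, adjusted p = 0.00042, rho = -0.63, permutation p = 1e-05; and r = -0.57, permutation p = 3e-05, adjusted p = 0.00063, rho = -0.50, permutation p = 0.00021; without the 2 farthest embryos -0.60 and -0.50). These were the only relations of a gene with depth, detected genes or that share that passed among 42. With that share taken out of both genes, in a partial correlation added after seeing the data, Arfrp1 and Npl were at r = 0.16 (adjusted permutation p = 0.343) and 11 of the 21 pairs passed in place of 6. The triangle of Timd2, Iqub and Ccdc25 and the pair of Ccdc25 and Rnf11 were among the 11.

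In the SR1848 group Pearson's r was positive for 20 of 21 pairs with a median of 0.19, and 7 pairs passed the permutation test after adjustment (8 unadjusted, 5 by rho). Npl with Rnf11 was the strongest (r = 0.40, permutation p = 0.00027, adjusted p = 0.0038, rho = 0.47, permutation p = 4e-05, r = 0.40 without the 2 farthest). Npl with Them4, the one pair that passed in both groups, followed (r = 0.33, permutation p = 0.0023, adjusted p = 0.014, rho = 0.35, permutation p = 0.0016). In the DMSO group that pair no longer passed once total count and number of detected genes were taken out (partial r = 0.26, adjusted permutation p = 0.167). The other 5 joined Rnf11 with Arfrp1, Iqub and Them4, and Them4 with Timd2 and Ccdc25, at r between 0.28 and 0.31. Values of this size were not rare among all genes tested. For Iqub with Rnf11, 15.2% of them had at least this r with Rnf11. At the other end, 0.862% had at least the r of Arfrp1 with Rnf11 when set against Arfrp1. These levels rest on few counts, with medians from 1.5 to 23.5 an embryo. With total count and detected genes taken out in the SR1848 group, 2 pairs passed, Npl with Rnf11 (partial r = 0.35) and Npl with Them4 (partial r = 0.29).

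The pairs that passed differed between the groups, yet the differences did not pass their own test. Permuting the group labels of the embryos gave an adjusted p under 0.05 for 0 of 21 pairs and an unadjusted p under 0.05 for 4: Timd2 with Ccdc25 (r lower by SR1848 minus DMSO = -0.42, permutation p = 0.018, adjusted p = 0.225), Iqub with Ccdc25 (-0.45, permutation p = 0.029, adjusted p = 0.225), Ccdc25 with Rnf11 (-0.42, permutation p = 0.032, adjusted p = 0.225) and Arfrp1 with Npl (-0.37, permutation p = 0.045, adjusted p = 0.237). With total count and detected genes taken out, 1 pair passed, Timd2 with Ccdc25 (-0.58, adjusted permutation p = 0.012).

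With Nr5a2 itself no covariation of the 7 genes was detected over the 50 DMSO embryos: 0 of 7 passed, also at an unadjusted p under 0.05 and by rho. There r lay between -0.08 and 0.21 with a median of 0.16, and 6 of the 7 values were positive. Over the 80 SR1848 embryos all 7 values of r were positive with a median of 0.24, and 2 passed after adjustment over 14 relations. They were Them4 (r = 0.37, permutation p = 0.00079, adjusted p = 0.011, rho = 0.37, permutation p = 0.00082, r = 0.37 without the 2 farthest) and Timd2 (r = 0.34, permutation p = 0.0021, adjusted p = 0.015, rho = 0.39, permutation p = 0.00032, r = 0.31 without the 2 farthest). At an unadjusted p under 0.05 there were 6, and by rho 4 passed. Of all genes tested, 0.522% had at least the r of Them4 with Nr5a2 when set against Nr5a2, and 0.893% that of Timd2. Over the 7 genes this share ran from 0.522% (Them4) to 34.4% (Iqub). Set against Them4 and Timd2 themselves, the shares were 0.847% and 3.49%. Them4 and Timd2 both kept an adjusted permutation p of 0.020 with total count and detected genes taken out. The difference between the groups in r with Nr5a2 was not tested.

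**Figure D5:**
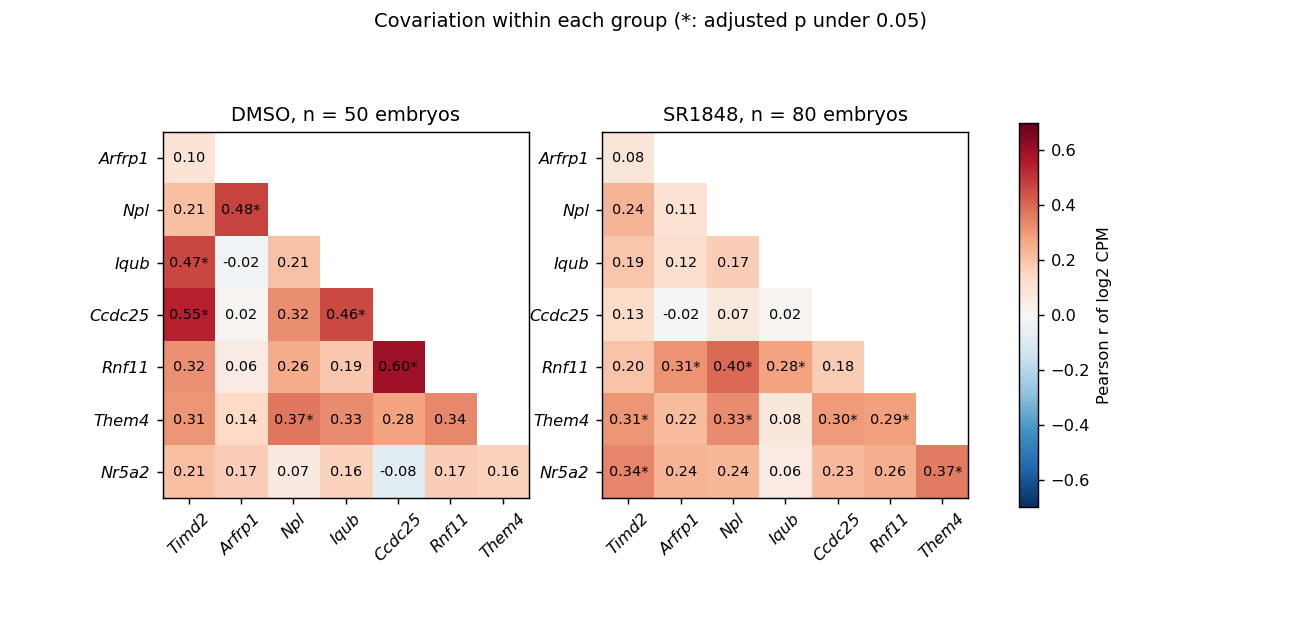
Pearson's r of log2 CPM for every pair of the 7 genes and Nr5a2 (bottom row) over 50 DMSO embryos (left) and 80 SR1848 embryos (right), from blue (negative) to red (positive), with stars on pairs whose adjusted permutation p is under 0.05. Stars mark 6 pairs of the 7 genes on the left and 7 on the right, and Nr5a2 has stars on the right only, for Timd2 and Them4.

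The genes most alike in pattern were other genes than the 7. Among 6011 named genes with a mean of at least 20 CPM in the controls, the highest r over the 50 DMSO embryos were those of Npl with Gtf2h1 (0.80), a subunit of TFIIH, and with the mitochondrial chaperone gene Clpx (0.78). Ccdc25 was most like Hax1 (0.78) and Mtf2 (0.75), Rnf11 most like Ak6 (0.77) and Nsa2 (0.76), and Arfrp1 most like Ccdc124 (0.71) and Srpr (0.67), the receptor of the signal recognition particle. Them4 followed Terf1 (0.70) and Dnajb14 (0.63), Iqub followed Abhd6 (0.67) and Cfdp1 (0.63), and Timd2 followed Sf3b6 (0.66) and Prr11 (0.65). These are descriptions, each the top of 6011 values over libraries that share their depth and composition.

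Over the 80 SR1848 embryos the leading values were lower for all 7 genes and belonged to other names. The lower values are not read as a loss of covariation. The 6011 genes were picked by their control level, the 7 had few counts left, and the groups differ in size. Rnf11 was most like Ikzf5 (0.73) and Obox3 (0.65), a homeobox gene of the oocyte and early embryo. Npl was most like Ruvbl1 (0.60) and Zc3hc1 (0.60), Timd2 most like Spopfm2 (0.56) and Wdr44 (0.55), and Iqub most like Wdr44 (0.47) and Mdn1 (0.46). Them4 followed Bcap31 (0.49) and Ak6 (0.47), Ccdc25 followed Tmem167 (0.48) and Fxr1 (0.47), and Arfrp1 followed Coil (0.42) and Tedc2 (0.41). None of these genes led for the same one of the 7 in both groups.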

How the data were processed

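RNA of single embryos was measured in 130 libraries (80 SR1848, 50 DMSO), grouped by their titles. The submitters' processing notes name kallisto 0.46.1, DESeq2 1.32.0, Trim Galore 0.6.2, R 3.5.1 and bcl2fastq. They also name hg19 and mm10 without saying what each was used for. The authors deposited kallisto's estimated counts per transcript. 28.1% of these values are not whole. The authors also deposited a log2 table, log2(count / size factor + 1), used only as a check. A further deposited table holds the authors' DESeq2 comparison per transcript: base mean (a signal), log2 fold change, p-value and a test score. Only its fold changes, a standard error and an adjusted p are quoted, its score was not used, and its coordinates were replaced by GENCODE M21 coordinates on mm10.

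Counts were summed per gene and rounded. Entries that match no gene (0.735% of counts) and 5 entries that are no mouse transcript (0.026%) were left out. edgeR 4.0.16 (filterByExpr, TMM, robust quasi-likelihood test, two-sided, Benjamini-Hochberg over 13222 genes, threshold 0.05) compared the groups. DESeq2 1.42.0 was an alternative. Fold changes are on edgeR's log2 scale. CPM use TMM-scaled library sizes. Correlations used log2 CPM with a prior count of 1 and two-sided permutation tests with 100000 resamples. The script was also run on simulated data, in which few genes changed and as many rose as fell. That setting does not test the scaling under the broad changes seen here.

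The genes and the lists were chosen with earlier results of these data known. Besides the 7 genes and Nr5a2, the text names each gene's nearest tested neighbours, in each list the gene with the smallest p in each direction and the most abundant, the 2 genes most alike in each group (at least 20 CPM in the controls, named genes only), and the next 2 genes by fall, of which 1 is not reported here. Alternatives were other size factors, scaling to oocyte markers, DESeq2, other filters on low counts, a replicate block, leaving out low-depth embryos, a prior count of 5, Spearman's rho and partial correlations.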

Additional observations from a re-analysis of the deposited data

How the results depend on the processing

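The 7 falls kept their direction in all 10 settings of the comparison, with log2 fold changes from -7.72 to -6.06 for Timd2 and from -6.54 to -4.90 for Them4 at the ends of the list. Iqub moved most relative to the median of all genes (-6.33 to -5.25): its log2 fold change was -5.11, and -6.24 with the replicate block against -5.22 for the same embryos without it. Scaling to oocyte markers gave the lowest values of Timd2 and Them4, and relative to the median of all genes Timd2 then stood at -6.38. That scaling left 3 genes of the pathway lists higher and 87 lower and 11 neighbours lower. With no filter on low counts 17711 genes passed in place of 10921, as more genes were tested. Among the correlations, taking out total count and detected genes left 2 pairs in the SR1848 group and 1 pair that differed between groups, and taking out the share of the 100 most abundant genes, an alternative added after seeing the data, gave 11 pairs in the DMSO group. Relations with Nr5a2 in the SR1848 group numbered 4 by Spearman's rho and 4 with a prior count of 5. The cause of these shifts was not tested. Of the values of single genes and pairs under the alternatives, 134 stayed on their side, 13 no longer passed, 6 moved and 0 reversed. With the replicate block, on the 100 embryos whose numbers occur in both groups, 10093 genes passed, against 10263 for the same embryos without it (added after seeing the data). No pairing of embryos by these numbers was detected. The mean correlation of same-numbered embryos' deviations was 0.006, beside 5.9e-06 over all cross pairs, and 0 controls correlated best with their own number. Depth limits the SR1848 values most, with a median of 1.5 counts for Iqub and 4 for Arfrp1: differences among embryos with few or no counts are not resolved.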
